A study of Mus musculus with 15 samples.

Results

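The genes of cholesterol and fatty acid synthesis described here are 35 of the 42807 gene symbols in an RNA sequencing count table of C2C12 myotubes. They were chosen by symbol, as genes under the control of the SREBP transcription factors, and all 35 had enough counts to be tested. C2C12 cells are mouse myoblasts that stop dividing and fuse into long, multinucleated muscle fibres in culture when serum is reduced. The 15 libraries came from myotubes at day 6 of differentiation, with 24 h of treatment and 3 libraries in each of 5 groups. The groups were non-treated myotubes, vehicle (0.1% DMSO), and Jakyak-gamcho-tang (JGT), an extract of peony and licorice roots made with hot water, at 20, 100 or 500 µg/mL. The highest dose was calculated by the submitters to leave 80% of the cells viable. The JGT stock itself held DMSO, so DMSO may have risen with the dose (any adjustment: not given in the sources used here). Separate cultures are not stated for libraries of the same group. The p-values therefore reflect how far these libraries vary, and that variation may be technical.

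Cells make cholesterol from acetyl-CoA in a long chain of reactions through mevalonate, farnesyl diphosphate and squalene, and make fatty acids from the same acetyl-CoA. SREBP2, encoded by Srebf2, mainly drives the sterol genes, and SREBP1, encoded by Srebf1, mainly the fatty acid genes. Both precursors sit in the membrane of the endoplasmic reticulum with the escort protein SCAP, and INSIG proteins hold SCAP there when sterols are plentiful. When sterols run low, SCAP carries the SREBP to the Golgi, where it is cut and its active part goes to the nucleus. Muscle cells use these products for new membrane, for prenylated proteins and for stored lipid.

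Total rounded counts ran from 26012856 to 36854235 per library, and the lowest count of any of these genes in any library was 223. Values are given as CPM, the count per 1000000 counts of the library, scaled by the TMM factors of edgeR. A gene was called higher or lower when its adjusted p in edgeR's quasi-likelihood test, over all 14461 genes tested, was below 0.05. Myotube markers were abundant in every library, with a sum over 12 genes of 17657 to 18102 CPM in non-treated and 17425 to 18782 CPM in JGT 500 µg/mL myotubes, and all 12 were present. The sum covers members that moved both ways, given beside the comparisons. The sum of 12 markers of dividing cells was 611 to 623 CPM in non-treated, 509.8 to 526 with vehicle, and 474 to 487, 427 to 433 and 262 to 272 at the rising doses. Of 10 adipocyte markers, 7 stayed under 10 counts in every library, Cfd and Cidec at 0. In bulk RNA, fewer cells of a type and less RNA per cell cannot be told apart. JGT 500 µg/mL replicate 2 lay apart from the other libraries of its group on the first principal component, at 17.5 against 37.2 and 39.4. All titles carry the same batch label, but control and JGT libraries carry sample codes of 2 different series. A difference between JGT and vehicle therefore cannot be told apart from one between the code series, whereas the doses share a series. JGT libraries of the same replicate number share the start of their code.

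The desaturase genes were the most abundant of the set. Per kilobase of exon, vehicle myotubes held 315 CPM of Scd2 and 170.4 CPM of Scd1, whose enzymes place the first double bond into stearate and palmitate. Next came Hmgcs1, the HMG-CoA synthase of the mevalonate pathway, at 83.0 CPM per kilobase, and then Srebf2 (59.4), the sterol isomerase gene Ebp (50.7) and Insig1 (48.2). Srebf1 stood at 17.4 on this scale, below Srebf2. At the low end were Elovl6 (5.43), which elongates palmitate, the sterol reductase gene Tm7sf2 (2.02) and Acss2 (1.63), which makes acetyl-CoA from acetate.

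**Figure D1:**
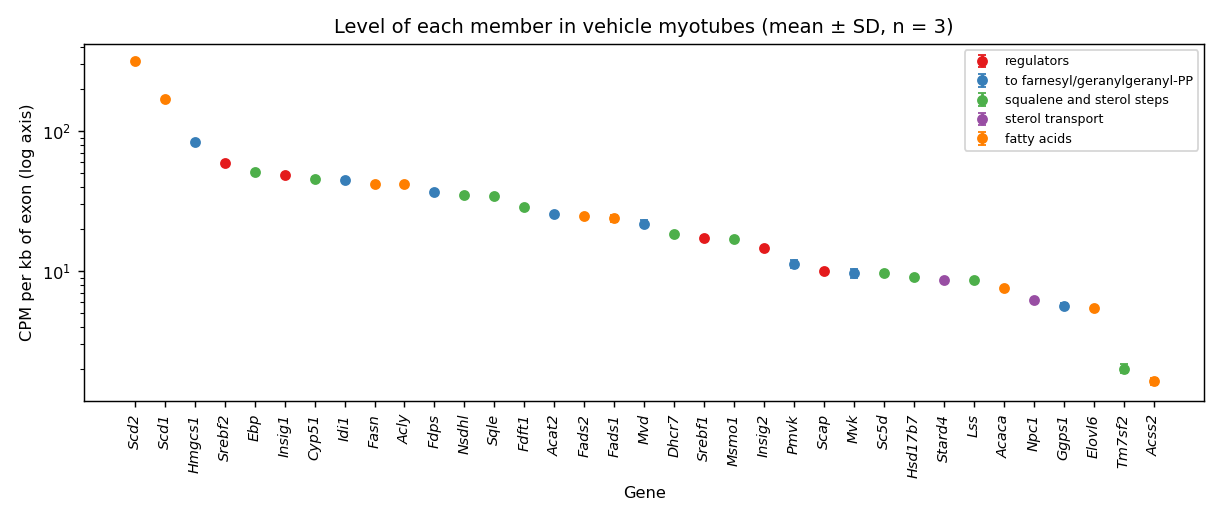
Level of each gene in vehicle myotubes in CPM per kilobase of exon (mean ± SD of 3 libraries), on a log axis, coloured by role. Scd2 and Scd1 lie above every other gene, and Acss2 and Tm7sf2 lie lowest.

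All 35 genes moved within a narrow span. The ratio of the highest to the lowest of the 15 libraries ran from 1.13 to 1.73, with a median of 1.31, and was under 1.5 for 32 genes. The mean was highest in non-treated myotubes for 24 of the 35 genes, and the share of all genes with this order was not counted. The 26 cholesterol genes are the set without the 9 fatty acid genes. They include the 5 regulators, Srebf1 among them, and the 2 sterol transport genes. Summed over the 26 cholesterol genes, the level was 3164, 3152 and 3117 CPM in non-treated libraries, 2896, 2915 and 2962 with vehicle, 2680.3, 2729 and 2800.4 at 20 µg/mL, 2696, 2755 and 2800.4 at 100 µg/mL and 2765, 2969.6 and 3009 at 500 µg/mL. Every non-treated library thus lay above every other library, every library at 20 and 100 µg/mL lay below every vehicle library, and of those at 500 µg/mL 1 lay below and 2 above the vehicle range. Within this sum, the 5 regulators overlapped between non-treated (776, 803 and 772 CPM) and vehicle libraries (802, 794 and 800), as did the 2 transport genes. The 8 genes up to farnesyl and geranylgeranyl diphosphate fell from 1004.5, 1020 and 995 to 856.5, 866 and 890 CPM. The 11 genes of the squalene and sterol steps fell from 1260, 1212 and 1229 to 1121.5, 1137 and 1151 CPM. The 9 fatty acid genes summed to 3804, 3713 and 3791 CPM without treatment, 3567, 3615 and 3658 with vehicle, 3476, 3482 and 3574 at 20 µg/mL, 3455, 3546 and 3537 at 100 µg/mL and 3386, 3660.5 and 3632 at 500 µg/mL. For them too, the non-treated libraries were the highest. The libraries at 100 µg/mL lay below every vehicle library, while those at 20 and 500 µg/mL overlapped vehicle.

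**Figure D2:**
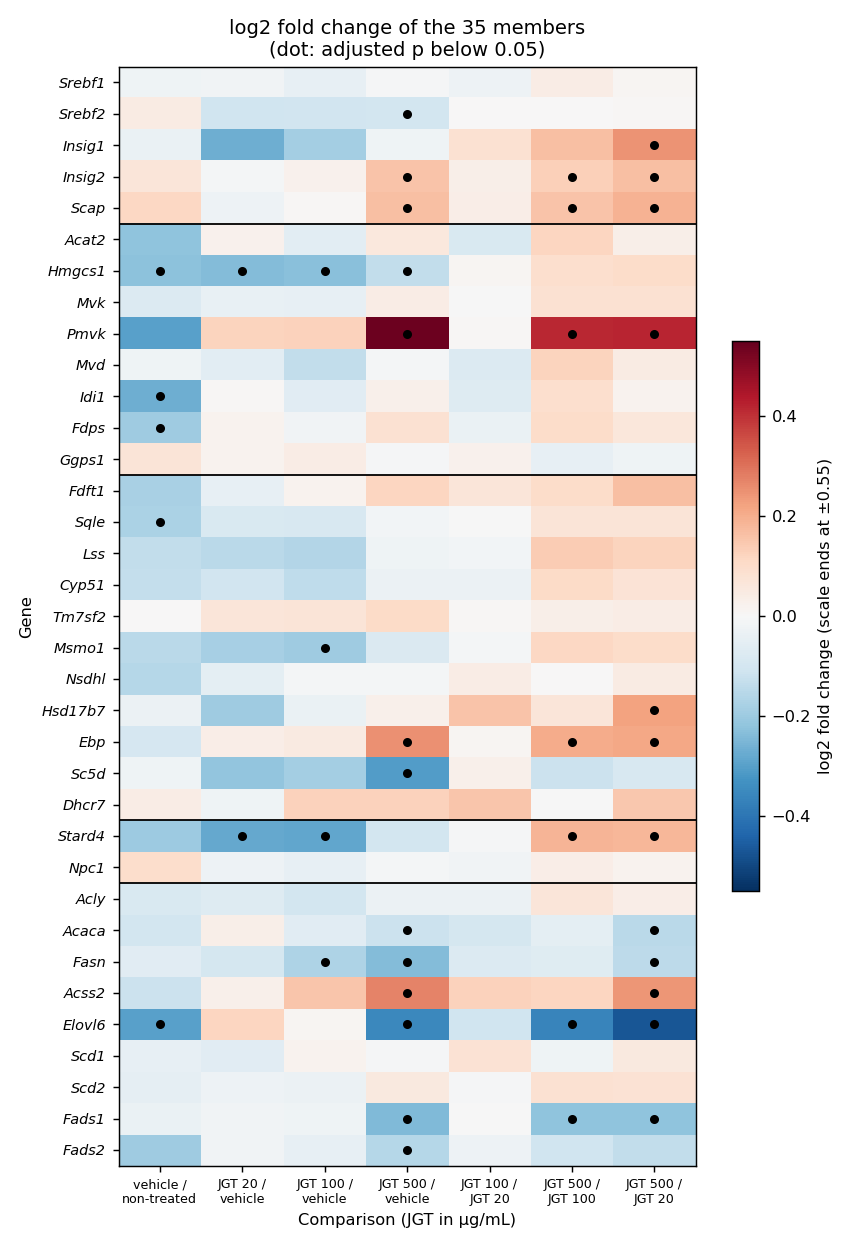
log2 fold change of each of the 35 genes (rows, grouped by role) in each of the 7 comparisons (columns). A dot marks an adjusted p below 0.05. The vehicle column is mostly negative with 5 dots, and the column of 500 µg/mL against vehicle holds dots of both signs.

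Vehicle against non-treated myotubes asked what DMSO alone went with. With vehicle, 4 cholesterol genes and 1 fatty acid gene were lower. Of the 35 genes, 5 were called lower and 0 higher by edgeR, which is 14.3% of them, against 1.31% of all genes tested called in either direction (0.754% lower, 0.553% higher). At an unadjusted p under 0.05, 17 were lower and 1, Scap, was higher, and DESeq2 called 9 lower and 0 higher. For scale, edgeR's p of 0.0487 for Pparg ranked 2380 from the smallest of all 14461 genes tested, whichever the direction. The 5 were Hmgcs1, Idi1, Fdps, Sqle and Elovl6. The median log2 fold change of the 35 was −0.08, against 0.0025 over all genes, and 28 of the 35 values were negative. The 3 vehicle libraries all lay below the 3 non-treated ones for 20 of the 35 genes and all above them for 3, against 13.6% and 13.2% of all genes tested. Leaving out any 1 of the 6 libraries left 1 to 3 genes called lower, with 1, Hmgcs1, left without vehicle replicate 1. The share of all genes called by DESeq2 or in these fits was not counted.

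Hmgcs1, which joins acetyl-CoA and acetoacetyl-CoA ahead of mevalonate, stood at 445, 449 and 443 CPM without treatment, 379, 378 and 386 with vehicle, 320.0, 323 and 326 at 20 µg/mL, 312, 330.4 and 334 at 100 µg/mL and 334, 335 and 372 at 500 µg/mL. The groups formed 3 levels that did not overlap, with non-treated on top, vehicle in the middle and all 9 JGT libraries below. It fell 1.17-fold with vehicle (log2 −0.23 ± 0.0393, adjusted p = 0.00754). Idi1, the isomerase that makes dimethylallyl diphosphate, was at 189, 192 and 187 CPM without treatment, 152, 156 and 163 with vehicle, 155, 158 and 161 at 20 µg/mL, 145, 151 and 156 at 100 µg/mL and 154, 152 and 175 at 500 µg/mL. The non-treated libraries lay above all others, and the remaining 4 groups overlapped. Its fall with vehicle was 1.21-fold (log2 −0.27 ± 0.0463, adjusted p = 0.00721), and it was no longer called without vehicle replicate 1 (log2 −0.25, adjusted p = 0.0524).

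Fdps, the farnesyl diphosphate synthase, had 174, 188 and 172 CPM without treatment, 153, 154 and 159 with vehicle, 149, 160.0 and 163 at 20 µg/mL, 152, 150.1 and 158 at 100 µg/mL and 165, 156 and 172 at 500 µg/mL. Vehicle lay below non-treated in every library (log2 −0.20 ± 0.0451, adjusted p = 0.0339), and the JGT doses overlapped vehicle. Sqle, the squalene epoxidase that starts the oxygen-dependent part of the pathway, had 215, 217 and 215 CPM without treatment, 191, 189.6 and 194 with vehicle, 177, 174 and 191 at 20 µg/mL, 175, 180.0 and 185 at 100 µg/mL and 179, 197 and 192 at 500 µg/mL. It too was lower in every vehicle library than in any non-treated one (log2 −0.17 ± 0.0401, adjusted p = 0.0369). The calls of Fdps and Sqle were both lost when any 1 of the 6 libraries was left out, with an adjusted p of 0.0628 to 0.148 for Fdps and 0.107 to 0.131 for Sqle. Fdps was also not called with library totals as the only scaling (adjusted p = 0.0522).

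Elovl6 was the fatty acid gene among the 5, at 45.7, 39.2 and 43.8 CPM without treatment, 34.0, 34.8 and 35.9 with vehicle, 38.6, 36.0 and 39.0 at 20 µg/mL, 35.9, 35.4 and 34.2 at 100 µg/mL and 26.7, 28.7 and 26.5 at 500 µg/mL. Vehicle lay below non-treated without overlap (log2 −0.30 ± 0.0544, adjusted p = 0.00975), and the 500 µg/mL libraries were lower than all others. The vehicle call was lost without non-treated replicate 1 or 3 or vehicle replicate 1 or 2, with an adjusted p of 0.0517 to 0.0662. Of the 12 markers of dividing cells, 5 were also called lower with vehicle, and their summed level, given above, was lower too. Of the 12 myotube markers, Myh8 was called higher with vehicle (log2 0.34 ± 0.0505, adjusted p = 0.00255). The part of these markers in the fall of the sterol genes was not tested.

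**Figure D3:**
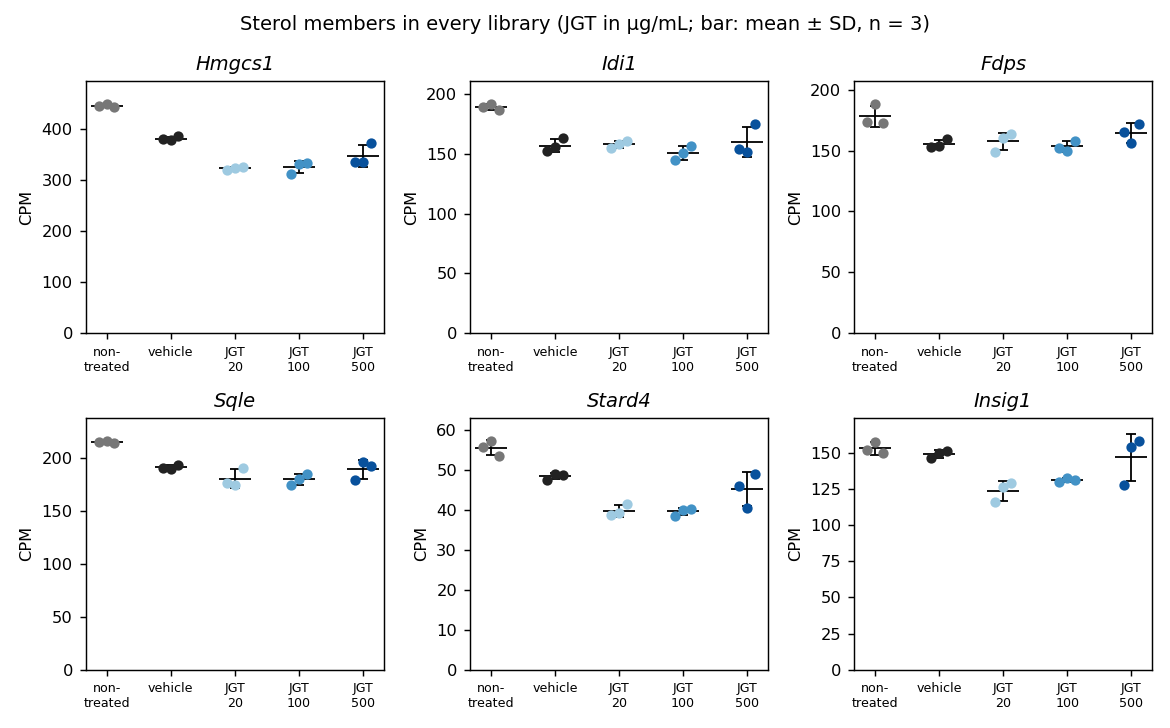
CPM in every library (points) with mean ± SD (bars, n = 3) for 6 sterol genes across the 5 groups, each axis starting at 0. Hmgcs1 and Idi1 are highest in the non-treated libraries, and Hmgcs1 and Stard4 have their lowest means at 20 and 100 µg/mL.

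Other genes of the sterol chain lay lower with vehicle in every library without passing the test. Acat2, which makes acetoacetyl-CoA, averaged 75.3 ± 2.36 and 64.6 ± 0.760 CPM in non-treated and vehicle myotubes (SD, n = 3; log2 −0.22 ± 0.0591, adjusted p = 0.0661). The averages of Fdft1, the squalene synthase, were 136 ± 5.64 and 120.5 ± 1.44 CPM (−0.18 ± 0.0606, 0.157). Those of Lss, which closes the sterol rings, were 102 ± 1.51 and 93.0 ± 2.17 CPM (−0.14 ± 0.0587, 0.251). DESeq2 called Acat2 lower (adjusted p = 0.0311), as well as Pmvk (0.0345), Stard4 (0.0452) and Fads2 (0.0232). Cyp51, the lanosterol demethylase, and Nsdhl, a sterol dehydrogenase, also had every vehicle library below every non-treated one (log2 −0.13 and −0.16). Ggps1, which makes geranylgeranyl diphosphate, and Tm7sf2 overlapped between these groups (log2 0.07 and 0.0036). In the main edgeR fit, none of Acat2, Fdft1, Lss, Cyp51, Nsdhl, Ggps1 and Tm7sf2 was called in any of the 7 comparisons. Some alternative edgeR fits did call genes among them. With only the 2 groups fitted, Acat2, Fdft1, Lss, Cyp51 and Nsdhl were called lower with vehicle (adjusted p = 0.00105 to 0.0266).

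Up to 250 bases ahead of the RefSeq start site, ended where a transcript of the gene in GENCODE M21 begins, are shown for 3 genes on which the results turn, to set the windows with and without matches to known elements of sterol promoters side by side. Hmgcs1 was lower with vehicle and at every dose, and Elovl6 and Pmvk were the genes of the set that fell and rose most at 500 µg/mL. Coordinates and bases are of the mouse build GRCm38.p6, all on the + strand, written 5′ to 3′. Capitals mark a sterol element (TCACNCCAC), a CCAAT box (CCAAT) or a GC box (GGGCGG) on either strand, and no 2 marked matches overlap.
Hmgcs1, chr13:119690101-119690350: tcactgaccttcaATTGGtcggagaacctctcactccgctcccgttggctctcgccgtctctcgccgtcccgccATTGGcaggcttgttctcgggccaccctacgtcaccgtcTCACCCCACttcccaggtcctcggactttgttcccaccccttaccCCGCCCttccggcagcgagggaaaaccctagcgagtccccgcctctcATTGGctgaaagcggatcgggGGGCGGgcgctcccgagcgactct
Elovl6, chr3:129532136-129532354: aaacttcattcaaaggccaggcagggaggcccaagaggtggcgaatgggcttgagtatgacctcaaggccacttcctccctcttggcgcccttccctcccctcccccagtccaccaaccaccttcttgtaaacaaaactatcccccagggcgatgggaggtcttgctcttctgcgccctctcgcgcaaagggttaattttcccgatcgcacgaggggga
Pmvk, first of 2 start sites, chr3:89454291-89454540: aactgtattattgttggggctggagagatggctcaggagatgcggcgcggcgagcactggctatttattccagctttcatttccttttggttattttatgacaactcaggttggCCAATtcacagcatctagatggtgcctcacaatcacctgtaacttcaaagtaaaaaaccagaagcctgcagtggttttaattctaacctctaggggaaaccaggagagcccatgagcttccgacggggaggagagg
The Hmgcs1 stretch holds the sterol element TCACCCCAC 137 bases before the start, with 3 CCAAT boxes and 2 GC boxes around it. The Pmvk stretch holds 1 CCAAT box, and the Elovl6 stretch, of 219 bases, none of the 3. Windows of 250 bases before to 50 after the start were matched for 27 of the 35 genes (35 windows), and not for Fdps, Fdft1, Sqle, Stard4, Npc1, Scd1, Scd2 and Fads1. The sterol element was in 1 of these 35 windows, that of Hmgcs1, against 1.24% of all 32851 windows of mouse genes. CCAAT boxes were in 65.7% of the 35 windows and 37.4% of all, and GC boxes in 74.3% and 35.7%. A match of letters is a description and not a bound site.

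The next comparisons asked what JGT at 20 and 100 µg/mL went with, against the same 3 vehicle libraries. Hmgcs1, at the entry to the sterol pathway, and the sterol carrier gene Stard4 were lower at both doses. At 20 µg/mL, 2 of the 35 genes were called lower, Hmgcs1 and Stard4, and 0 higher, or 5.71%, against 0.325% of all genes tested (0.152% lower, 0.173% higher). At 100 µg/mL, 4 were called lower, Hmgcs1, Msmo1, Stard4 and Fasn, and 0 higher, or 11.4%, against 4.31% of all genes (2.22% lower, 2.09% higher). At an unadjusted p under 0.05, 10 genes were lower at each of these doses, with 1 higher at 20 µg/mL (Elovl6) and 1 at 100 µg/mL (Acss2), and DESeq2 called 0 higher at either dose. For scale at 20 µg/mL, edgeR's p of 0.0497 for Rrm2 ranked 1531 from the smallest of all 14461 genes tested. Such a rank is not given here for 100 µg/mL. The median log2 fold change was −0.03 at 20 µg/mL and −0.04 at 100 µg/mL, against 0.0012 and 0.0001 over all genes. Of the 12 markers of dividing cells, 8 were lower at an unadjusted p under 0.05 at 20 µg/mL, and 10 were called lower at 100 µg/mL. At 20 µg/mL, 5 of the 12 myotube markers and 1 of the 3 adipocyte markers tested were higher at an unadjusted p under 0.05 without passing the adjusted test. At 100 µg/mL the myotube markers Tnnt3 (log2 0.18 ± 0.046, adjusted p = 0.0246) and Actn2 (0.14 ± 0.0377, 0.0327) were called higher, as was Lpl (0.76 ± 0.0546, 4.35e-08) among the 3 adipocyte markers tested. The adipocyte sum was 67.2 to 69.9 CPM at 100 µg/mL against 48.3 to 49.9 with vehicle, and Lpl made up most of this rise. Its mean was 45.8 against 27 CPM, whereas Cebpa (17.8 against 17.6) and Pparg (4.57 against 4.48) stayed nearly level. The part of these markers in the changes was not tested.

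Against vehicle, Hmgcs1 fell 1.18-fold at 20 µg/mL (log2 −0.24 ± 0.0394, adjusted p = 0.00598) and 1.17-fold at 100 µg/mL (log2 −0.23 ± 0.0394, adjusted p = 0.00148). The call at 20 µg/mL was lost without vehicle replicate 3 (adjusted p = 0.0606) or JGT 20 µg/mL replicate 1 (0.0523). Stard4, which carries cholesterol between membranes in the cytosol, stood at 55.7, 57.3 and 53.6 CPM without treatment, 47.6, 48.9 and 48.8 with vehicle, 38.7, 39.2 and 41.6 at 20 µg/mL, 38.6, 40.1 and 40.3 at 100 µg/mL and 46.1, 40.5 and 49.0 at 500 µg/mL. All 6 libraries of the lower doses lay below every vehicle library, and of those at 500 µg/mL 2 lay below the vehicle values and 1 just above. It fell 1.22-fold at 20 µg/mL (log2 −0.28 ± 0.0548, adjusted p = 0.0231) and 1.22-fold at 100 µg/mL (log2 −0.29 ± 0.0544, adjusted p = 0.00315). The call at 20 µg/mL was lost without any 1 of the 3 vehicle libraries or JGT 20 µg/mL replicate 1 or 2 (adjusted p = 0.0709 to 0.162), whereas the call at 100 µg/mL held in every alternative run.

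Msmo1, the sterol C4-methyl oxidase, averaged 104 ± 3.70 CPM with vehicle and 90.7 ± 2.88 at 100 µg/mL (SD, n = 3; log2 −0.19 ± 0.0521, adjusted p = 0.0372). Fasn, the fatty acid synthase, had 474, 494 and 481 CPM without treatment, 469, 461 and 456 with vehicle, 415, 438 and 444 at 20 µg/mL, 394, 404 and 435 at 100 µg/mL and 373, 392 and 412 at 500 µg/mL. Its libraries at each dose lay below every vehicle library, and it fell 1.12-fold at 100 µg/mL (log2 −0.17 ± 0.0423, adjusted p = 0.0243). The calls of both at 100 µg/mL were lost in several fits that left out 1 library. For Msmo1 these were vehicle replicates 2 and 3 and each JGT 100 µg/mL library (adjusted p = 0.0767 to 0.173), and for Fasn each vehicle library and JGT 100 µg/mL replicates 1 and 2 (0.0706 to 0.147).

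Insig1, itself a sterol-responsive gene whose protein retains SCAP, stood at 152, 158 and 149.6 CPM without treatment, 146, 149.7 and 151 with vehicle, 116, 126 and 129 at 20 µg/mL, 129.7, 132 and 131 at 100 µg/mL and 128, 154 and 158 at 500 µg/mL. The 20 and 100 µg/mL libraries all lay below the vehicle libraries, and those at 500 µg/mL lay on both sides of them. Neither lower dose passed the test (log2 −0.27 ± 0.0596, adjusted p = 0.0689 at 20 µg/mL, and −0.19 ± 0.0593, 0.0951 at 100 µg/mL), but DESeq2 called it at 20 µg/mL (adjusted p = 0.00785). Srebf2 had 413, 418 and 411 CPM without treatment, 430.1, 424 and 426 with vehicle, 381, 404 and 402 at 20 µg/mL, 402, 383 and 404 at 100 µg/mL and 391, 393 and 410.0 at 500 µg/mL. Every JGT library lay below every vehicle library, with differences of −0.11, −0.11 and −0.10 on the log2 scale at the rising doses (adjusted p = 0.234, 0.0985 and 0.0288). Srebf1, at 94.2, 110.2 and 94.2 CPM without treatment, 100.2, 96.0 and 97.4 with vehicle, 92.8, 96.5 and 101 at 20 µg/mL, 91.5, 92.1 and 100.4 at 100 µg/mL and 97.3, 89.1 and 106 at 500 µg/mL, overlapped between all groups and was not called in any comparison.

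Hsd17b7, a sterol 3-ketoreductase, stood at 50.8, 46.2 and 44.8 CPM without treatment, 46.5, 47.3 and 44.8 with vehicle, 40.3, 40.8 and 39.9 at 20 µg/mL, 44.9, 44.7 and 45.4 at 100 µg/mL and 42.2, 51.4 and 47.5 at 500 µg/mL. The 20 µg/mL libraries were the lowest 3 of all 15, at a difference from vehicle that did not pass the test (log2 −0.20 ± 0.0579, adjusted p = 0.181). Between 100 and 20 µg/mL, edgeR and DESeq2 each called 0 of the 35 genes, against 0.429% of all genes tested called by edgeR (0.297% higher, 0.131% lower). At an unadjusted p under 0.05, 3 were higher at 100 µg/mL (Hsd17b7, Dhcr7 and Acss2) and 1 was lower (Acaca). For scale, edgeR's p of 0.0487 for Mef2c ranked 1068 from the smallest of all 14461 genes tested. Adjusted values nearest the threshold were those of Hsd17b7 (log2 0.16 ± 0.0572, adjusted p = 0.379) and Dhcr7 (0.15 ± 0.0603, 0.497).

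At 500 µg/mL the genes of the set moved both ways. Against vehicle, 5 of the 35 were called higher (Insig2, Scap, Pmvk, Ebp and Acss2) and 8 lower (Srebf2, Hmgcs1, Sc5d, Acaca, Fasn, Elovl6, Fads1 and Fads2). These 37.1% stand beside 33.3% of all genes tested, 16.5% higher and 16.8% lower, so the share of the set that changed was near that of all genes. The median log2 fold change was −0.0087, against 0.0062 over all genes. Of the 9 fatty acid genes, 5 fell and 1 rose, with a median of −0.12. Of the 26 cholesterol genes, 3 fell and 4 rose, with a median of −0.0059. Regulators are among these, with Srebf2 lower and Scap and Insig2 higher. The enzyme genes among them were Hmgcs1 and Sc5d, lower, and Pmvk and Ebp, higher.

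Among the fatty acid genes, Elovl6 fell 1.28-fold at 500 µg/mL (log2 −0.35 ± 0.0559, adjusted p = 5.57e-05), with each of its libraries at 28.7 CPM or below and each vehicle library at 34.0 or above. Fasn fell 1.18-fold (log2 −0.24 ± 0.0424, adjusted p = 0.000211). Acaca, the acetyl-CoA carboxylase that feeds Fasn with malonyl-CoA, had 138, 139 and 138 CPM without treatment, 132, 127 and 129.8 with vehicle, 129, 134 and 134 at 20 µg/mL, 121, 122 and 128 at 100 µg/mL and 113, 119.6 and 126 at 500 µg/mL. The 500 µg/mL libraries lay just under the vehicle ones (log2 −0.12 ± 0.0399, adjusted p = 0.0286). That call was lost without JGT 500 µg/mL replicate 1 (−0.08, 0.15), vehicle replicate 1 (−0.11, 0.0843) or vehicle replicate 3 (−0.12, 0.0659), and when libraries were scaled by their totals alone (−0.10, 0.0711). When only the 6 libraries of the comparison were fitted, Fasn and Elovl6 were the 2 genes of the set called lower.

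The desaturases of polyunsaturated fatty acids fell as well. Fads1, the delta-5 desaturase, had 108, 117 and 121 CPM with vehicle and 89.0, 113 and 89.7 at 500 µg/mL (log2 −0.24 ± 0.0736, adjusted p = 0.0193). Fads2, the delta-6 desaturase, had 81.5, 83.0 and 79.4 and 70.7, 80.2 and 68.1 CPM in the same groups (log2 −0.15 ± 0.0506, adjusted p = 0.0232). In both, JGT 500 µg/mL replicate 2 lay within the vehicle range while replicates 1 and 3 lay below it. Both calls were lost without JGT 500 µg/mL replicate 1 or 3 or vehicle replicate 2, and that of Fads1 also without vehicle replicate 3 (adjusted p = 0.0563 to 0.123). That of Fads1 was further lost with no filter on low counts (adjusted p = 0.0659). Without JGT 500 µg/mL replicate 2, 9 of the 35 genes were lower and 6 higher, and the share of all genes called was not counted.

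Acss2 was the fatty acid gene that rose, at 18.4, 17.6 and 17.9 CPM without treatment, 15.5, 17.0 and 17.4 with vehicle, 16.9, 17.2 and 16.7 at 20 µg/mL, 18.1, 18.5 and 18.8 at 100 µg/mL and 18.9, 20.9 and 20.3 at 500 µg/mL. Its 500 µg/mL libraries were the highest 3 of the 15, and the rise over vehicle was 1.21-fold (log2 0.27 ± 0.056, adjusted p = 0.000823). Scd1, Scd2 and Acly, the ATP citrate lyase that supplies cytosolic acetyl-CoA, did not pass the test, at log2 −0.01, 0.05 and −0.03 (adjusted p = 0.943, 0.371 and 0.507). Scd1 had its highest value of all 15 libraries in JGT 500 µg/mL replicate 2, at 910.5 CPM, and its lowest in replicate 3, at 755 CPM.

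In the mevalonate steps, Pmvk, the phosphomevalonate kinase, rose furthest of the set, with 24.3, 24.6 and 22.1 CPM without treatment, 18.4, 20.9 and 18.6 with vehicle, 20.2, 21.1 and 21.7 at 20 µg/mL, 20.4, 20.4 and 22.2 at 100 µg/mL and 29.9, 24.0 and 30.3 at 500 µg/mL. Every 500 µg/mL library lay above every vehicle library and every library of the lower doses, but replicate 2, at 24.0 CPM, lay within the non-treated range. The rise over vehicle was 1.45-fold (log2 0.54 ± 0.0782, adjusted p = 2.4e-05). Hmgcs1 fell 1.1-fold (log2 −0.14 ± 0.0394, adjusted p = 0.012), a call lost without JGT 500 µg/mL replicate 1 (−0.11, 0.0599). Mvk, the mevalonate kinase just ahead of Pmvk, averaged 26.0 ± 1.91 CPM with vehicle and 26.7 ± 1.61 at 500 µg/mL (SD, n = 3; log2 0.04 ± 0.0687, adjusted p = 0.676), and Mvd, the decarboxylase just after it, 40.6 ± 2.46 and 40.2 ± 6.09 (−0.01 ± 0.0793, 0.925). Idi1 and Fdps were not called (log2 0.03 ± 0.0463, adjusted p = 0.662 for Idi1, and 0.08 ± 0.0451, 0.17 for Fdps).

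**Figure D4:**
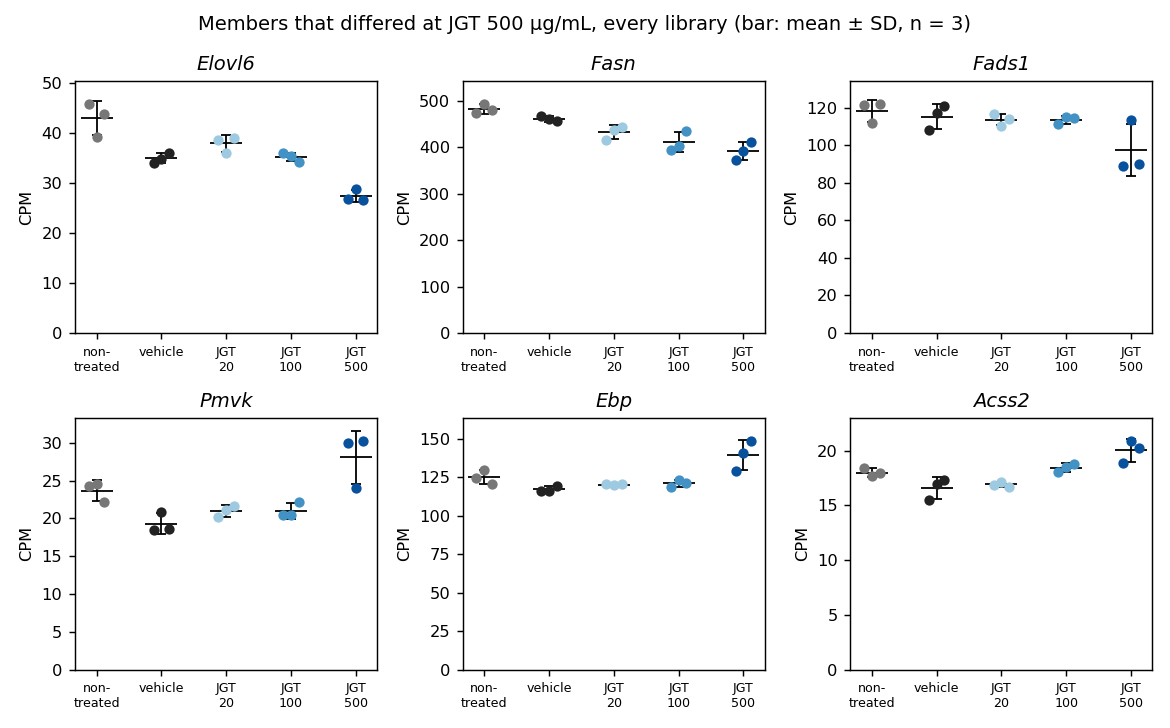
CPM in every library (points) with mean ± SD (bars, n = 3) for 6 genes called at 500 µg/mL against vehicle, each axis starting at 0. Elovl6 and Fasn are lower at 500 µg/mL than with vehicle in every library, Pmvk, Ebp and Acss2 are higher, and Fads1 has 1 of its 3 libraries at the vehicle level.

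In the sterol steps, Ebp, the isomerase that shifts the ring double bond, had 124, 129.6 and 121 CPM without treatment, 116, 116 and 119.5 with vehicle, 120.3, 119.7 and 120.5 at 20 µg/mL, 119, 123 and 121 at 100 µg/mL and 129, 141 and 149 at 500 µg/mL. The 500 µg/mL libraries lay above all vehicle libraries and all libraries of the lower doses, and the rise over vehicle was 1.19-fold (log2 0.25 ± 0.0435, adjusted p = 0.000152). Sc5d, the desaturase that acts after it, moved the other way, at 50.2, 44.0 and 49.4 CPM without treatment, 45.2, 47.7 and 48.4 with vehicle, 43.6, 38.4 and 39.5 at 20 µg/mL, 40.1, 44.1 and 39.8 at 100 µg/mL and 34.7, 45.3 and 34.1 at 500 µg/mL. At 500 µg/mL, replicates 1 and 3 were the lowest of all 15 libraries, while replicate 2, at 45.3 CPM, lay within the vehicle range (log2 −0.31 ± 0.0946, adjusted p = 0.0233). The call was lost without JGT 500 µg/mL replicate 1 (adjusted p = 0.0936) or 3 (0.0931) or vehicle replicate 2 (0.0597) or 3 (0.069), and with no filter on low counts (0.0759). Dhcr7, the reductase of the last step, had 108, 104 and 101 CPM without treatment, 108, 106 and 109.7 with vehicle, 112, 104 and 102 at 20 µg/mL, 118, 121 and 114 at 100 µg/mL and 106, 133 and 114 at 500 µg/mL. Its 500 µg/mL libraries overlapped vehicle and it was not called (log2 0.12 ± 0.0606, adjusted p = 0.124), but it was without JGT 500 µg/mL replicate 1 (log2 0.19, adjusted p = 0.0174).

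Among the regulators, the escort gene and 1 of the 2 retention genes rose. Scap had 69.7, 67.7 and 68.1 CPM without treatment, 74.2, 75.2 and 73.2 with vehicle, 71.4, 73.6 and 73.1 at 20 µg/mL, 73.6, 73.0 and 76.9 at 100 µg/mL and 79.5, 84.5 and 85.4 at 500 µg/mL. Its 500 µg/mL libraries were the highest 3 of the 15 (log2 0.16 ± 0.0382, adjusted p = 0.00238), and the non-treated libraries were the lowest 3. Insig2, which unlike Insig1 depends little on sterol levels, had 47.1, 48.9 and 49.5 CPM without treatment, 51.2, 49.4 and 51.9 with vehicle, 48.9, 51.7 and 50.9 at 20 µg/mL, 52.1, 51.4 and 51.6 at 100 µg/mL and 55.8, 59.5 and 54.5 at 500 µg/mL. Here too the 3 libraries at 500 µg/mL were the highest of all (log2 0.16 ± 0.0417, adjusted p = 0.00668), but the call was lost when only the 6 libraries of the comparison were fitted (adjusted p = 0.0505). Srebf2 fell by 0.10 on the log2 scale, a call lost without any 1 of the vehicle libraries (adjusted p = 0.0566 to 0.0637) or JGT 500 µg/mL replicate 1 (0.0862), and when libraries were scaled by their totals alone (0.0882). Npc1, which moves cholesterol out of lysosomes, stood at 68.0, 60.6 and 68.0 CPM without treatment, 68.6, 69.4 and 72.0 with vehicle, 70.9, 69.5 and 65.6 at 20 µg/mL, 67.1, 69.6 and 66.5 at 100 µg/mL and 66.3, 77.1 and 65.0 at 500 µg/mL. All its groups overlapped except that vehicle lay above non-treated, and it was not called at 500 µg/mL (log2 −0.01 ± 0.0578, adjusted p = 0.915), nor was Stard4 (−0.10 ± 0.0544, 0.165).

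The doses were compared with each other within 1 series of sample codes. From 100 to 500 µg/mL, 5 genes rose (Insig2, Scap, Pmvk, Ebp and Stard4) and 2 fell (Elovl6 and Fads1), or 20% of the 35, against 19.7% of all genes tested (9.05% higher, 10.7% lower). From 20 to 500 µg/mL, 8 rose (Insig1, Insig2, Scap, Pmvk, Hsd17b7, Ebp, Stard4 and Acss2) and 4 fell (Acaca, Fasn, Elovl6 and Fads1), or 34.3%, against 23.3% of all genes (11.1% higher, 12.2% lower). The median log2 fold change was 0.09 for 500 against 100 µg/mL and 0.06 for 500 against 20 µg/mL, against 0.0049 and 0.0068 over all genes. These comparisons share the 500 µg/mL libraries.

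Elovl6 fell by 0.36 on the log2 scale from 100 to 500 µg/mL (SE 0.0551, adjusted p = 6.82e-05), and by 0.47 from 20 to 500 µg/mL (SE 0.0552, adjusted p = 1.78e-06). Pmvk rose 1.33-fold (log2 0.41 ± 0.0759, adjusted p = 0.000608) and 1.34-fold (log2 0.42 ± 0.0767, adjusted p = 0.000405) in the same comparisons. Ebp rose 1.15-fold (log2 0.20 ± 0.0432, adjusted p = 0.00227) and Scap 1.12-fold (log2 0.16 ± 0.0379, adjusted p = 0.00565) from 100 to 500 µg/mL. Stard4 rose from 100 to 500 µg/mL (log2 0.19 ± 0.0544, adjusted p = 0.0196), although its call was lost without JGT 100 µg/mL replicate 1 or 2 or JGT 500 µg/mL replicate 1 or 3 (adjusted p = 0.056 to 0.143). Hmgcs1 was not called between these doses (log2 0.09 ± 0.0394, adjusted p = 0.107), nor was Msmo1 (0.11 ± 0.0521, 0.137).

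From 20 to 500 µg/mL, Insig1 rose 1.19-fold (log2 0.25 ± 0.0595, adjusted p = 0.00528) and Hsd17b7 1.17-fold (log2 0.22 ± 0.0575, adjusted p = 0.00723) and both means at 500 µg/mL lay within the range of the vehicle libraries. Without JGT 500 µg/mL replicate 1, 13 genes were higher at 500 than at 20 µg/mL and 1 was lower, and 9 were higher and 1 lower than at 100 µg/mL. How many of all genes were called in this and the following fits was not counted. Without JGT 100 µg/mL replicate 1 or 2, 3 genes were higher at 500 than at 100 µg/mL. The call of Fads1 between 500 and 100 µg/mL was lost without any 1 of the 6 libraries but JGT 500 µg/mL replicate 2 (adjusted p = 0.0804 to 0.185), which left 1 gene, Elovl6, called lower. That of Insig2 was lost without any 1 JGT 100 µg/mL library or JGT 500 µg/mL replicate 2 (0.0711 to 0.113). Without JGT 20 µg/mL replicate 2 or 3, 2 genes were lower at 500 than at 20 µg/mL. Without JGT 500 µg/mL replicate 2, 6 genes were lower at 500 than at 20 µg/mL and 4 lower than at 100 µg/mL. Between 500 and 20 µg/mL, the call of Stard4 was lost without JGT 20 µg/mL replicate 1 or 2 or JGT 500 µg/mL replicate 1 or 3 (adjusted p = 0.0737 to 0.141), and that of Fasn without JGT 20 µg/mL replicate 2 or 3 or JGT 500 µg/mL replicate 1 (0.0605 to 0.102). Acaca lost its call without JGT 500 µg/mL replicate 1 (0.0621), and Fads1 without any 1 of the 6 libraries but JGT 500 µg/mL replicate 2 (0.0582 to 0.159).

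The 3 libraries at 500 µg/mL did not agree on these genes. Replicate 1 was the lowest of the 3 for 22 of the 35 and the highest for 0, while replicate 2 was the highest for 18 and replicate 3 for 17. The median log2 ratio to the vehicle mean was −0.09 in replicate 1, with 28 genes below the vehicle mean, and 0.045 and 0.017 in replicates 2 and 3, with 15 below it in each. For the 9 fatty acid genes the medians were −0.20, −0.021 and −0.14 in the order of the replicates, so replicate 2 lay nearest to vehicle. For the 11 genes of the squalene and sterol steps they were −0.13, 0.09 and 0.033, with replicate 1 alone below 0. Leaving out replicate 1 lowered the number of genes called lower against vehicle from 8 to 2, Fasn and Elovl6, and leaving out vehicle replicate 2 or 3 lowered it to 4. Calls over all genes in these fits were not counted. The mean chi-square per gene between libraries, about 1 under sampling noise alone, was 8.23 to 34.7 within this group and 1.99 to 9.23 within the other groups. The summed level of the dividing-cell markers at 500 µg/mL, with 12 of 12 called lower than vehicle, differed little between the 3 libraries (262, 272 and 263 CPM). Adipocyte markers summed to 104 to 115 CPM against 48.3 to 49.9 with vehicle, and Lpl, Cebpa and Pparg, the 3 that could be tested, rose. Lpl made up most of this rise, with a mean of 76.4 against 27 CPM. Cebpa had 25.8 against 17.6 CPM and Pparg 5.41 against 4.48. The other 7 markers stayed under 10 counts in every library. Of the 12 myotube markers, 4 were called lower than vehicle, Myh4 (log2 −0.80 ± 0.0435, adjusted p = 1.42e-11), Ckm (−0.48 ± 0.0425, 2.81e-08), Myh8 (−0.38 ± 0.0505, 6.66e-06) and Myh3 (−0.18 ± 0.0658, 0.0455). Myog (0.26 ± 0.0357, 1.19e-05), Des (0.29 ± 0.0911, 0.0269) and Tnnt3 (0.13 ± 0.046, 0.0357) were called higher. The part of these 3 marker lists in the changes at 500 µg/mL was not tested.

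**Figure D5:**
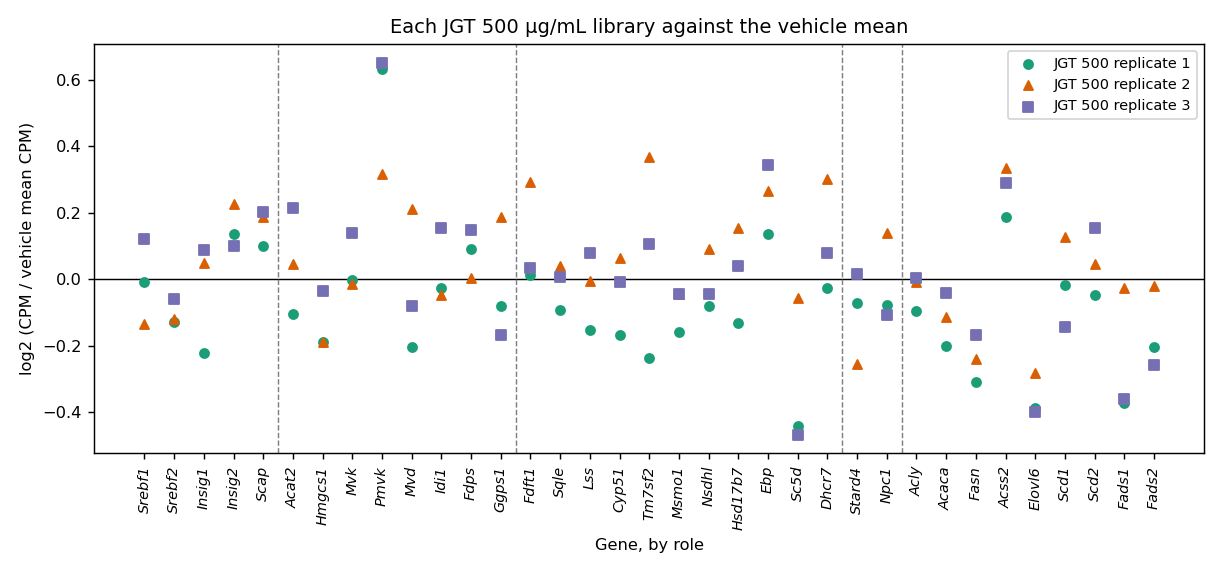
log2 ratio of each JGT 500 µg/mL library to the vehicle mean for each of the 35 genes, with 1 symbol per library. Replicate 1 lies lowest for 22 genes, and for Fads1, Fads2 and Sc5d replicate 2 lies near 0 while replicates 1 and 3 lie below it.

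Of 79 further genes of these pathways in 5 lists, 75 could be tested, and 0 of them were called by edgeR in vehicle against non-treated myotubes, against 1.31% of all genes tested. At an unadjusted p under 0.05, 6 were higher and 6 lower, and DESeq2 called 1 higher and 0 lower. As above, edgeR's p of 0.0487 for Pparg ranked 2380 from the smallest of all 14461 genes tested in this comparison. At 500 µg/mL against vehicle, the machinery that cuts SREBP and degrades INSIG had 1 of 10 genes higher and 3 lower, or 40%, near the 33.3% of all genes tested that were called at this dose (16.5% higher, 16.8% lower). Sec24a, a coat protein of the vesicles that leave the endoplasmic reticulum, fell (log2 −0.30 ± 0.0486, adjusted p = 8.12e-05), as did the ubiquitin ligase gene Syvn1 (−0.14 ± 0.0383, 0.00724), and Ubxn4, a factor of protein disposal at the endoplasmic reticulum, rose (0.20 ± 0.0397, 0.000598). Of 17 liver X receptor, efflux and storage genes, 5 rose and 1 fell, or 35.3%, also near that share. The lipid exporter genes Abca7 (log2 0.32 ± 0.0387, adjusted p = 2.11e-06) and Abca1 (0.41 ± 0.0897, 0.00157) rose, and Ch25h, which makes 25-hydroxycholesterol, fell (−0.61 ± 0.14, 0.00229). Without JGT 500 µg/mL replicate 2, 4 genes of this list fell, and the share of all genes called in that fit was not counted.

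Of 26 further genes of fatty acid, triglyceride and phospholipid synthesis, 23 could be tested, and 4 rose and 3 fell at 500 µg/mL, or 30.4%, against 33.3% of all genes tested. Me1, the malic enzyme that supplies NADPH, had 72.1, 69.7 and 71.8 CPM without treatment, 66.6, 66.6 and 61.9 with vehicle, 75.0, 77.1 and 76.3 at 20 µg/mL, 79.4, 79.8 and 82.0 at 100 µg/mL and 109, 96.2 and 110.0 at 500 µg/mL. It was the 1 gene of the 5 lists called at 20 µg/mL (log2 0.23 ± 0.0472, adjusted p = 0.0405), and it was also called higher at 100 µg/mL (0.31 ± 0.047, 0.000521) and 500 µg/mL (0.69 ± 0.0469, 4.36e-10). Every JGT library lay above every vehicle library, and the levels at 500 µg/mL were above all others. Gpam, which starts glycerolipid synthesis, rose at 100 µg/mL (0.20 ± 0.0375, 0.00316) and 500 µg/mL (0.35 ± 0.0376, 3.36e-07). Ptplb, a dehydratase of fatty acid elongation, fell at 500 µg/mL (−0.50 ± 0.127, 0.00645). Without JGT 500 µg/mL replicate 2, 7 genes of this list fell, and the share of all genes called in that fit was not counted.

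The isoprenoid branch, which uses farnesyl and geranylgeranyl diphosphate, had 3 of 14 genes higher and 3 lower at 500 µg/mL, or 42.9%, against 33.3% of all genes tested (16.5% higher, 16.8% lower). The prenyltransferase genes Rabggta (log2 0.38 ± 0.0565, adjusted p = 2.85e-05) and Fntb (−0.24 ± 0.0597, 0.00447) moved in opposite directions, and the ubiquinone synthesis gene Coq2 rose (0.29 ± 0.08, 0.0086). Of 11 further sterol genes, 2 rose and 5 fell, or 63.6%, against the same background. Cav1, the caveolin that binds cholesterol at the plasma membrane, fell at 100 µg/mL (log2 −0.25 ± 0.0544, adjusted p = 0.00878) and at 500 µg/mL (−0.93 ± 0.0558, 8.59e-11). Vldlr, a lipoprotein receptor gene, rose at both doses (0.41 ± 0.0713, 0.00166, and 0.67 ± 0.0709, 3.18e-07), and Scarb1, the scavenger receptor for high-density lipoprotein, fell at 500 µg/mL (−0.29 ± 0.0611, 0.00115).

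Some of these genes share exons with others in GENCODE M21 on GRCm38. Fdps shares 26.7% of its exon bases with Gm43738 on the same strand, and Tm7sf2 12.1% with Vps51. On the opposite strand, Fdft1 shares 18.3% with Ctsb, Scap 13.2% with 5830462I19Rik, Hmgcs1 12.1% with Gm48342 and Idi1 9.22% with Gm48574. The counting's strand option was not given in the sources used here, so reads of the opposite-strand pairs cannot be told apart. For the same-strand pairs, reads of the shared bases cannot be told apart under any strand option. The values of these genes are uncertain to that extent. Ctsb had 18208 to 28977 counts per library and Vps51 722 to 1124, but 5830462I19Rik only 10 to 27. Gm43738, Gm48342 and Gm48574 were not among the gene symbols counted. Hmgcs1 lies on chromosome 13 at 119690379 to 119708260 (+ strand), Idi1 on chromosome 13 at 8885501 to 8892451 (+ strand), Elovl6 on chromosome 3 at 129532355 to 129638495 (+ strand), Pmvk on chromosome 3 at 89454541 to 89469013 (+ strand), Fasn on chromosome 11 at 120805846 to 120824547 (− strand), Ebp on chromosome X at 8185329 to 8193512 (− strand), Acss2 on chromosome 2 at 155517948 to 155585724 (+ strand) and Scap on chromosome 9 at 110333288 to 110384950 (+ strand).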

How the data were processed

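Strand-specific mRNA libraries were sequenced as pairs of 100-bp reads, per the labels' protocols. Per the submitters' processing notes, FastQC 0.11.9, Trim Galore 0.6.5, STAR 2.7.3a, RSEM 1.3.3 and the build GRCm38 (mm10) were used. Tool roles, annotation and strand option: not given in the sources used here. Values are expected counts per gene symbol that the authors deposited without normalization, of which 9.34% were not whole (tolerance 0.005). They were rounded.

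In R 4.3.3, edgeR 4.0.16 (filterByExpr, TMM, robust quasi-likelihood F test, two-sided) fitted all 15 libraries with a mean per group and 10 residual degrees of freedom, with Benjamini-Hochberg adjustment over 14461 genes. TMM factors were 0.9876 to 1.018, and the biological coefficient of variation was 5.31%. Errors are SD of 3 libraries or SE of the fit. Exon lengths came from GENCODE M21, promoter windows from RefSeq (GRCm38.p6). The test was tested on simulated data. Alternatives were DESeq2 1.42.0, library totals as the only scaling, no filter, only the groups compared, a replicate block, and leaving out each library.

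The 35 genes and the lists were chosen with earlier results of these data known. Within each role, every library is given for Srebf1 and Srebf2, the 3 smallest p at 500 µg/mL against vehicle, and the smallest for vehicle against non-treated and for 100 against 20 µg/mL. Of each of the 5 lists of further genes, the 3 smallest p at 500 µg/mL against vehicle are named. Other called genes of these lists are counted but not all named. Among the 35, every gene called in the main edgeR fit is named. Faxdc2, 1 of the 79 further genes, matched no symbol.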

Additional observations from a re-analysis of the deposited data

How the results depend on the processing

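No gene of the 35 changed direction with an adjusted p below 0.05 under any alternative. Of 43 calls over the 7 comparisons, 16 held under every alternative run. Genes called lower with vehicle numbered 5, against 9 by DESeq2, 9 with no filter on low counts and 14 when only the 2 groups compared were fitted. Fitting only the 2 groups also gave 6 lower at 20 µg/mL, 1 higher (Dhcr7) and 10 lower at 100 µg/mL and 2 lower at 500 µg/mL, 1 higher (Hsd17b7) at 100 against 20 µg/mL, 1 higher at 500 against 100 µg/mL, and 4 higher and 1 lower at 500 against 20 µg/mL. At 500 against 100 µg/mL, 1 was lower, against 2, with library totals as the only scaling, with no filter, with the replicate block, or with only the 2 groups. The cause was not tested.

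Leaving out 1 library at a time gave 1 to 3 lower with vehicle, and 0 to 2 lower at 20 µg/mL, 2 to 3 lower at 100 µg/mL, and 5 to 6 higher and 2 to 9 lower at 500 µg/mL. It gave 3 to 9 higher and 1 to 4 lower at 500 against 100 µg/mL, and 7 to 13 higher and 1 to 6 lower at 500 against 20 µg/mL. The other counts stayed at 0. For none of the alternatives was the share of all genes called counted. At 20 µg/mL, 0 were lower without vehicle replicate 3 or JGT 20 µg/mL replicate 1. Any pairing by replicate number was weak. Deviations of same-numbered libraries correlated at −0.21 to 0.119 across the comparisons. Between 100 and 500 µg/mL they correlated at 0.073 to 0.116, while differently numbered libraries of these doses correlated at −0.094 to 0. With the replicate block, 6 genes were lower with vehicle, and Insig1 was also called lower at 20 µg/mL (adjusted p = 0.0235) and 100 µg/mL (0.0416). Each gene had at least 223 counts in each library, and counting error and the spread between libraries were not separated gene by gene.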
